A study of Glycine max with 30 samples.

Results

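The genes described here lie in the middle of the gene order of each soybean (Glycine max) chromosome. Glyma identifiers carry the chromosome number and rise along the chromosome, so the identifiers of each of 20 chromosomes were put in order and each was given its rank over the number of genes of that chromosome. Genes with a value from 0.45 to 0.55 were taken, which gave 5552 of 55589 genes, between 222 on chromosome 16 and 372 on chromosome 13. Another 6 identifiers, 3 of them inside that range, were left out, and the remaining 50031 genes are called the other genes. Gene order stands here in place of a position on the chromosome. It was not set against a genome sequence, so whether a middle gene lies in a pericentromere was not tested.

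Poly(A) RNA of mature leaves was sequenced in 30 libraries from 3 families of plants, each carrying an RNAi construct against a subunit of RNA polymerase IV or V. In the NRP(D/E)2-RNAi family and in the NRPE1-RNAi family, both of cultivar Mustang, 6 transgenic (T) and 6 non-transgenic (NT) plants each were compared. The NRPD1-RNAi family is of cultivar Jack and gave 3 T and 3 NT plants. The NT plants come from the same family as the T plants and lack the transgene, and no library served as control for more than 1 family. The promoter of the constructs, and whether a family goes back to 1 insertion, are not given in the sources used here, and cultivar and construct cannot be told apart between NRPD1-RNAi and the other families.

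Polymerases IV and V are plant-specific enzymes of RNA-directed DNA methylation. Polymerase IV, whose largest subunit is NRPD1, makes the precursors of small interfering RNAs, and polymerase V, whose largest subunit is NRPE1, makes the transcripts to which those small RNAs guide DNA methylation. NRP(D/E)2 is the second subunit and is shared by both enzymes. The chromosome regions around plant centromeres are rich in transposons and heavily methylated, recombine little and hold few genes for their length, and in soybean such pericentromeric heterochromatin makes up a large part of most chromosomes.

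The libraries held 10049997 to 21763621 counts over genes. No identifier matched a gene name, so genes are given by identifier with no role, and the leaf label and the level of each targeted subunit gene were not checked here. The labels number the plants of a group, and the p-values measure the spread between these plants.

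Middle genes were detected less often than the other genes in all 30 libraries. Of 5552 middle genes, 918 (16.5%) had no count in any library, against 6468 of 50031 other genes (12.9%). A count in every one of the 30 libraries was found for 2844 middle genes (51.2%) and for 27755 other genes (55.5%). A gene is called tested in a family where it passed edgeR's filter on low counts (filterByExpr), and 3244 middle genes (58.4%) were tested in at least 1 family, against 31164 other genes (62.3%). Gene length was not used here, and its part in these shares was not tested. In bulk leaf RNA, fewer cells that express a gene and less RNA per cell cannot be told apart.

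Along the gene order the share of tested genes formed a shallow trough wider than the middle range. In bins of 0.05 of the gene order, 67.3% of genes were tested at the low end and 69.2% at the high end. The 2 bins of the middle held 59.2% and 57.7%, and the lowest value, 57.4%, stood at 0.60 to 0.65. The edges of the range were not steps. Just inside the low edge, from 0.45 to 0.47, 59.4% of genes were tested, against 58.9% just outside it. Just inside the high edge, from 0.53 to 0.55, the share was 56.5%, against 57.8% just outside it.

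**Figure D1:**
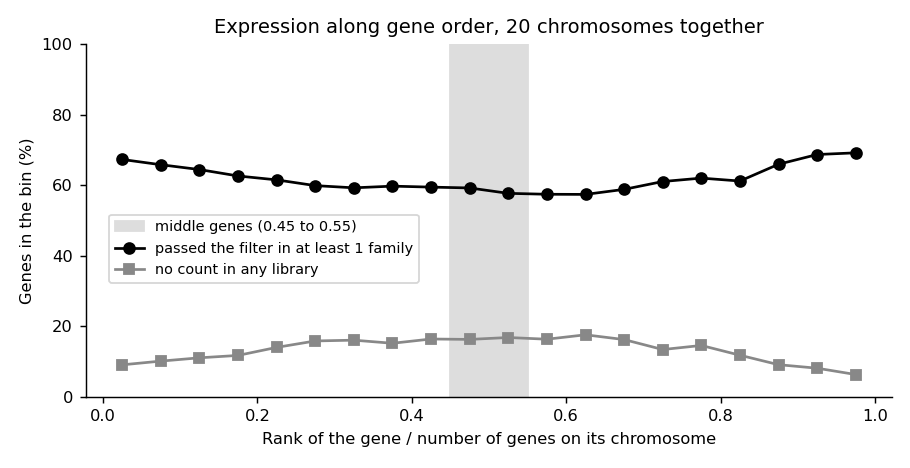
Share of genes (%) that passed the filter in at least 1 family (circles) and share with no count in any library (squares), in bins of 0.05 of the gene order, 20 chromosomes together. The grey band marks the middle genes. The tested share is lowest between about 0.5 and 0.65 and highest at both ends, at 67.3% and 69.2%, and the share with no count runs the other way.

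The chromosomes fell far apart in this respect. Under 50% of the middle genes were tested on 7 chromosomes (1, 4, 9, 12, 14, 16 and 18), with values between 38.5% on chromosome 4 and 47.2% on chromosome 9. On these 7 chromosomes together 750 of 1779 middle genes (42.2%) were tested and 29.96% had no count, against 62.0% tested and 13.2% with no count among the other genes of the same chromosomes. On the other 13 chromosomes 2494 of 3773 middle genes (66.1%) were tested and 10.2% had no count, against 62.4% and 12.8% among the other genes there. Summed over the other 13 chromosomes the middle genes were thus tested more often than the other genes, and summed over the 7 less often. Chromosomes were split by this share itself, so the split is a description and carries no test.

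Chromosome 18 held the largest share of middle genes with no count, 37.1%, and chromosome 6 the smallest, 3.69%. On chromosome 6 73.8% of middle genes were tested, against 59.5% of its other genes. The middle genes were tested less often than the other genes on 11 of 20 chromosomes. A window as wide as the middle range was also moved along each chromosome to find where the tested share was lowest. That window overlapped the middle range on 8 of 20 chromosomes, which were 6 of the 7 low chromosomes and 2 of the other 13. On chromosome 13 the lowest window began at rank 42 of 3730 genes, near the end of the chromosome. Middle genes gave between 3.74% of the chromosome's counts, on chromosome 14, and 16.3%, on chromosome 5.

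**Figure D2:**
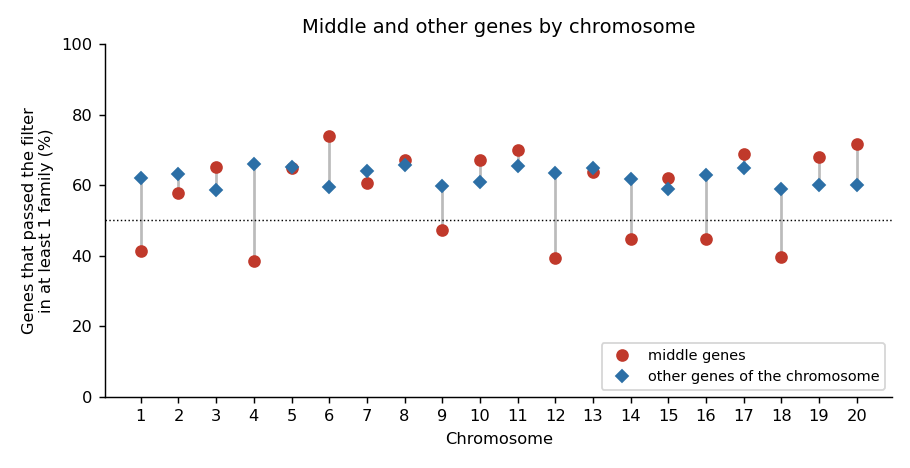
Share of genes (%) that passed the filter in at least 1 family on each chromosome, for middle genes (red circles) and the other genes of the same chromosome (blue diamonds); the dotted line is 50%. The middle genes of chromosomes 1, 4, 9, 12, 14, 16 and 18 lie below the line, and the other genes lie between 58.7% and 65.9% on all 20 chromosomes.

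More middle genes were detected in T than in NT plants of the NRP(D/E)2-RNAi family, and so were more of the other genes. After thinning every library to 10049997 counts, 66.6% ± 0.98 of the middle genes had at least 1 count in T plants and 64.0% ± 1.352 in NT plants (SD, n = 6 each). The T plants ranged from 65.7% to 68.4%, the NT plants from 61.8% to 65.3%, and all 6 T plants lay above all 6 NT plants. The mean difference was 146 middle genes. The other genes moved alike, with 70.6% in T plants and 67.9% in NT plants, again without overlap. The gap between the other genes and the middle genes was 4.01 percentage points in T plants and 3.85 in NT plants, and the groups overlapped.

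In the NRPE1-RNAi family 66.3% ± 0.73 of the middle genes were detected in T plants and 64.6% ± 0.60 in NT plants (SD, n = 6 each). The T plants ranged from 65.4% to 67.1% and the NT plants from 64.1% to 65.8%, and 4 of 6 T plants lay above every NT plant. The mean difference was 93.8 middle genes, and 70.3% of the other genes were detected in T plants against 68.3% in NT plants. For the other genes all 6 T plants lay above all 6 NT plants. The gap between the other genes and the middle genes was 4.00 percentage points in T plants and 3.71 in NT plants. In this gap 4 of 6 T plants lay above every NT plant, though T replicate 6 only barely. It stood at 3.9582 percentage points, against 3.9577 in NT replicate 2, the highest NT plant. In the NRPD1-RNAi family the T plants had 65.7%, 67.0% and 67.7% of middle genes detected, against 63.7%, 65.7% and 66.7% in NT plants. The groups overlapped there. The gap to the other genes was 3.68 percentage points in T plants and 4.09 in NT plants of NRPD1-RNAi, and 2 of 3 T plants lay below every NT plant. No p is given for these shares, which are scores over the middle genes.

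The share of each library's counts that fell on middle genes overlapped between T and NT plants in every family. Their share of counts was 9.49% ± 0.10 in T plants and 9.68% ± 0.38 in NT plants of the NRP(D/E)2-RNAi family (SD, n = 6 each). In the NRPE1-RNAi family it was 9.79% ± 0.21 in T plants and 9.87% ± 0.14 in NT plants (SD, n = 6 each). In the NRPD1-RNAi family the T plants had 10.01%, 10.26% and 10.35%, against 10.33%, 10.36% and 10.37% in NT plants. T minus NT was -0.193 percentage points in NRP(D/E)2-RNAi, -0.0786 in NRPE1-RNAi and -0.147 in NRPD1-RNAi. A single gene weighed on this share. Glyma.05G128000, the middle gene with the highest level in CPM (edgeR's counts per equal library size, scaled by TMM), alone gave 9.32% ± 2.66 of the middle counts in T plants and 10.5% ± 0.856 in NT plants of NRPD1-RNAi (SD, n = 3 each). It gave 5.46% ± 1.89 in T and 5.57% ± 0.590 in NT plants of NRPE1-RNAi, and 1.67% ± 0.818 in T and 1.94% ± 0.660 in NT plants of NRP(D/E)2-RNAi (SD, n = 6 each). It was not called between T and NT plants in any family (edgeR's adjusted p of 0.559 in NRP(D/E)2-RNAi, 0.962 in NRPE1-RNAi and 0.960 in NRPD1-RNAi).

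**Figure D3:**
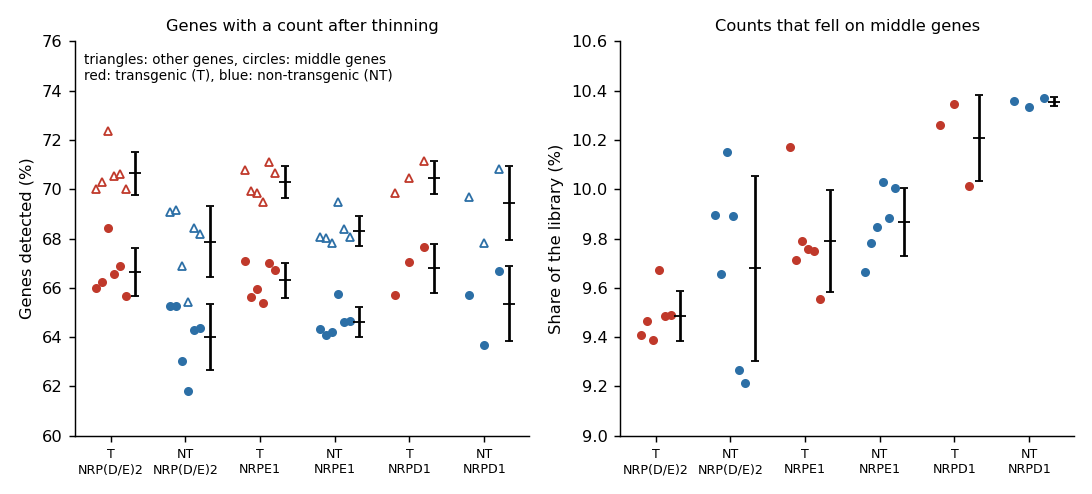
Left, genes with at least 1 count after thinning to equal depth (%), for middle genes (circles) and other genes (triangles); right, share of each library's counts that fell on middle genes (%). Each point is a library, red for T and blue for NT, with mean and SD beside it; the axes do not start at 0. Triangles lie above circles in all 30 libraries, and the circles of T and NT plants do not overlap in NRP(D/E)2-RNAi.

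In the NRP(D/E)2-RNAi family 467 of the 2995 tested middle genes differed between T and NT plants at an adjusted p under 0.05 in edgeR's quasi-likelihood test, adjusted over all genes tested by the Benjamini-Hochberg method. That is 15.6% of the tested middle genes, near the background of 15.9% over all genes tested, and 4569 of 28773 other genes (15.9%) were called. Single plants moved the share: it was 9.23% without T replicate 2, 9.23% without T replicate 3 and 10.3% without NT replicate 4, beside 9.62%, 9.12% and 9.99% of other genes. Of the called middle genes 235 were higher and 232 lower in T plants, beside a background of 8.6% of tested genes called higher and 7.25% called lower. The higher ones made up 50.3% of the called middle genes and 54.7% of the called other genes. The balance between higher and lower hung on the scaling: with library totals only, 65.9% of called middle genes and 69.7% of called other genes were higher.

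The median log2 fold change of the called middle genes was 1.11 among the higher and -0.76 among the lower ones, and for the called other genes it was 1.26 and -0.73. Over all tested genes it was -0.01 for the middle and -0.01 for the other genes. Changes of at least 2-fold were found for 205 called middle genes (6.85% of those tested, background 7.43%), 125 higher and 80 lower. Among the other genes there were 2154 (7.49%), 1549 higher and 605 lower, so the higher ones made up 61.0% of the middle and 71.9% of the other genes with such changes. T and NT plants did not overlap at all for 121 middle genes that were higher (4.04% of those tested, background 4.17%) and for 118 that were lower (3.94%, background 3.54%). The spread between plants did not set the middle genes apart, with a median SD on the log2(CPM + 0.5) scale of 0.28 in T and 0.33 in NT plants for middle genes, and 0.28 and 0.32 for other genes.

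The direction of the calls went with abundance among middle genes as among other genes. Of the middle genes with 1 to 10 CPM 56.7% of 194 calls were higher in T plants, of those with 10 to 100 CPM 46.1% of 232 calls, and of those over 100 CPM 34.8% of 23 calls. For the other genes these shares were 64.0%, 48.7% and 31.6%. Below 1 CPM 55.6% of 18 called middle genes were higher, against 72.9% of the called other genes.

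Called middle genes of the NRP(D/E)2-RNAi family lay on every chromosome, at 8.82% of tested middle genes on chromosome 2 and up to 22.3% on chromosome 18. The other genes ranged from 13.7% to 18.8% per chromosome. Each chromosome had 87 to 229 tested middle genes and 1127 to 2017 tested other genes, so the middle shares are the less exact ones. Middle genes of the 7 chromosomes with low expression were called at 18.2% (125 of 685), against 16.3% of the other genes there. Those of the other 13 chromosomes were called at 14.8% (342 of 2310), against 15.7% of the other genes there. This order of the 7 and the 13 held in 18 of 18 other settings of the fit, chosen after the values were seen. All of them reuse libraries of the main fit, so the count carries no test. Without the low-count filter the shares lay closer, at 11.66% on the 7 and 10.97% on the other 13 chromosomes. The 7 had been set apart by the share of middle genes that passed this filter, and its part in the gap was not tested.

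Direction differed widely between chromosomes, each with few calls. On chromosome 18 only 5 of 25 called middle genes were higher in T plants, and on chromosome 9 4 of 18 were, while 52.3% and 50.5% of the called other genes of these chromosomes were higher. On chromosome 16 15 of 17 called middle genes were higher, beside 67.6% of its called other genes, and on chromosome 20 19 of 25 were, beside 54.0%. These 4 chromosomes were picked for their values, so the counts are a description. Across the 18 other settings the share of higher calls stayed between 10% and 40% on chromosome 18 and between 20% and 46.7% on chromosome 9. It stayed between 76.2% and 100% on chromosome 16 and between 63.6% and 92.9% on chromosome 20. These settings reuse the libraries by which the 4 chromosomes were picked, so the ranges carry no test either. Neighbouring tested middle genes were both called in the same direction in 51 of 2972 pairs (1.72%), against 2.05% of the pairs of other genes.

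**Figure D4:**
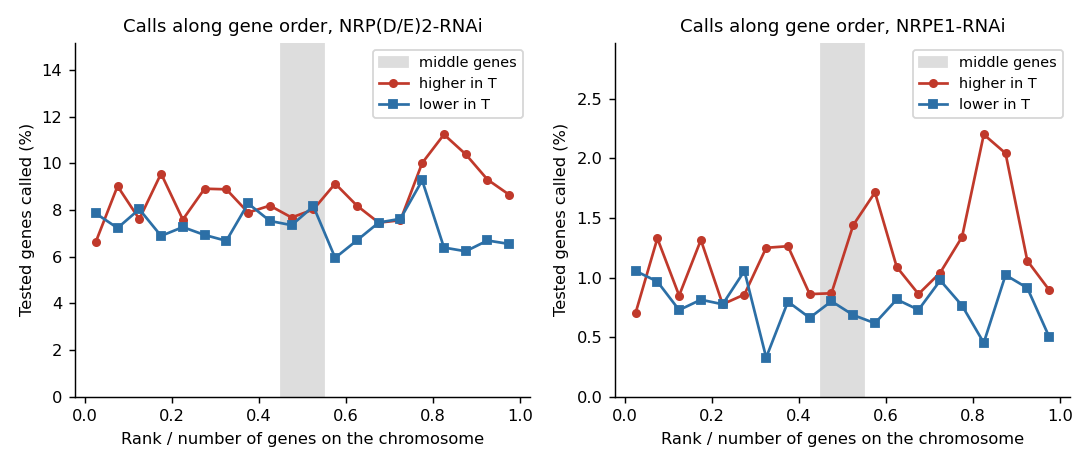
Share of tested genes (%) called higher (red circles) and lower (blue squares) in T plants at an adjusted p under 0.05, in bins of 0.05 of the gene order, in the NRP(D/E)2-RNAi (left) and NRPE1-RNAi (right) families. The grey band marks the middle genes, where both lines run within the range of the rest of the chromosome; the highest shares of higher calls, 11.2% and 2.20%, stand at 0.80 to 0.85.

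Among called middle genes with a mean of at least 5 CPM in 1 group and no overlap between groups, those with the largest log2 fold changes upward in the NRP(D/E)2-RNAi family had no or few counts in NT plants and over 10 CPM in T plants. Glyma.05G113500 (chromosome 5, rank 1135 of 2491) had 14.6 CPM in the lowest T plant, 46.5 at the median and 149 in the highest, against no count in any of the 6 NT plants. It was at least 2190-fold higher in T plants, against a floor of 3 counts over the NT group, with an edgeR adjusted p of 0.000578. T plants of this gene differed among themselves by a factor near 10. In the NRPE1-RNAi family it averaged 11.6 ± 13.1 CPM in T plants and 0.0249 ± 0.0609 CPM in NT plants (SD, n = 6 each), where 2 counts stood in NT plants, and it was not tested there. The ratio of the summed levels was 561, with an exact counting interval of 155 to 4637 at 95% that covers counting error only. In the NRPD1-RNAi family it had 0.998, 2.29 and 5.85 CPM in T plants, against 0.154, 0.175 and 0.525 CPM in NT plants, and was not called (edgeR's adjusted p of 0.286).

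Glyma.03G135100 (chromosome 3, rank 1351 of 2649) had 10.5, 17.1 and 50.03 CPM in the lowest, median and highest T plant of NRP(D/E)2-RNAi, against 0.116, 0.464 and 0.716 CPM in NT plants. T plants lay above NT plants in every family for this gene. It rose by 5.74 ± 0.51 on the log2 scale in NRP(D/E)2-RNAi (SE, edgeR's adjusted p of 2.00e-05) and by 4.62 ± 0.53 in NRPE1-RNAi (SE, edgeR's adjusted p of 0.000453). In NRPE1-RNAi it had 35.0, 60.8 and 89.2 CPM in the lowest, median and highest T plant, against 0.531, 1.77 and 6.25 CPM in NT plants. In NRPD1-RNAi it had 8.91, 11.3 and 17.0 CPM in T plants, against 0.877, 1.16 and 1.43 CPM in NT plants, a log2 fold change of 3.41 ± 0.34 that missed the threshold (SE, edgeR's adjusted p of 0.0750).

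Among the middle genes that fell in NRP(D/E)2-RNAi, Glyma.03G121500 (chromosome 3, rank 1215) had 0.258, 0.490 and 0.765 CPM in the lowest, median and highest T plant, against 3.26, 5.61 and 12.9 CPM in NT plants. Its log2 fold change was -3.70 ± 0.40 (SE, edgeR's adjusted p of 9.61e-05). Glyma.03G139100 (chromosome 3, rank 1391) had 4.30, 13.7 and 20.8 CPM in T plants, against 40.7, 79.9 and 90.6 CPM in NT plants, a log2 fold change of -2.41 ± 0.32 (SE, edgeR's adjusted p of 0.000498). Neither gene was called in the other families. In NRPE1-RNAi the NT plants of Glyma.03G139100 alone spanned 2.81 to 71.2 CPM, beside 5.53 to 25.2 CPM in T plants.

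In the NRPE1-RNAi family 56 of 2955 tested middle genes were called (1.90%), near the background of 1.97%, against 562 of 28480 other genes (1.97%). T plants were higher for 34 and lower for 22, beside a background of 1.19% of tested genes called higher and 0.776% called lower. Of the 56, 42 changed at least 2-fold (1.42% of those tested, background 1.49%), 26 upward and 16 downward, beside 428 of the 562 other genes (1.503%), 279 upward and 149 downward. The median log2 fold change was 2.31 among the higher and -1.30 among the lower middle genes, and 2.11 and -1.19 among the called other genes. T and NT plants did not overlap for 38 middle genes that were higher (1.29%, background 1.31%) and for 19 that were lower (0.643%, background 0.881%). Called middle genes stood on 18 of 20 chromosomes. None of 83 tested on chromosome 12 and none of 89 on chromosome 16 was called, beside 2.14% and 3.68% of the other genes there. On chromosome 3 it was 7 of 155 (4.52%), beside 2.41% of its other genes. Calls per chromosome were few, and differences between chromosomes were not tested. On the 7 chromosomes with low expression 11 of 661 tested middle genes were called (1.66%), against 2.10% of the other genes there. On the other 13 it was 45 of 2294 (1.96%), against 1.91% of the other genes there. For middle genes this order of the 7 and the 13 was the reverse of that in NRP(D/E)2-RNAi. The count rested on single libraries: 181 middle genes (6.07%) were called without NT replicate 4, beside 6.68% of other genes, and 37 (1.24%) without T replicate 2 or without T replicate 5, beside 1.46% and 1.41% of other genes.

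Glyma.09G146000 (chromosome 9, rank 1460 of 2865) changed most among middle genes in NRPE1-RNAi by the criteria for naming. It had 6.19, 33.4 and 52.5 CPM in the lowest, median and highest T plant, against 0.106, 0.238 and 0.522 CPM in NT plants, a log2 fold change of 6.75 ± 0.61 (SE, edgeR's adjusted p of 7.78e-05). In NRP(D/E)2-RNAi it had 4.68, 10.63 and 18.5 CPM in T plants, against 0.0580, 0.246 and 0.407 CPM in NT plants, and also rose (log2 fold change 5.52 ± 0.47, SE, edgeR's adjusted p of 1.47e-05). In NRPD1-RNAi it was near the limit of detection, at 0.249, 0.509 and 0.548 CPM in T plants, against 0, 0 and 0.1501 CPM in NT plants, and was not tested. The second gene that rose was Glyma.03G135100, given above.

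Of the genes that fell in NRPE1-RNAi, Glyma.18G145500 (chromosome 18, rank 1455 of 3023) had little spread within groups. It had 0.950, 1.498 and 1.83 CPM in the lowest, median and highest T plant, against 9.03, 11.8 and 15.4 CPM in NT plants, a log2 fold change of -3.08 ± 0.20 (SE, edgeR's adjusted p of 6.95e-06). In NRP(D/E)2-RNAi it fell as well, with 2.32, 5.10 and 7.91 CPM in T plants, against 13.5, 15.8 and 26.1 CPM in NT plants (log2 fold change -1.88 ± 0.26, SE, edgeR's adjusted p of 0.000612). In NRPD1-RNAi the groups overlapped, at 4.24, 4.50 and 7.01 CPM in T plants and 3.59, 4.20 and 5.41 CPM in NT plants. Glyma.03G132900 (chromosome 3, rank 1329) had 0.0950, 0.341 and 1.31 CPM in T plants of NRPE1-RNAi, against 3.13, 4.02 and 11.6 CPM in NT plants (log2 fold change -3.45 ± 0.62, SE, edgeR's adjusted p of 0.0101). It was not called in NRP(D/E)2-RNAi, where T replicate 3 stood at 6.34 CPM and the other 5 T plants at 0.935 CPM or less, against 2.72 to 9.22 CPM in NT plants.

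The Mustang families shared part of their calls. Of the 2848 middle genes tested in both, 19 were called higher and 11 lower in both, and none in opposite directions. These 30 genes were 57.7% of the 52 NRPE1-RNAi calls and 6.85% of the 438 NRP(D/E)2-RNAi calls among those middle genes. For the other genes 317 were shared, 62.0% of 511 and 7.31% of 4335 calls, with 6 more called in opposite directions. Of the 52 middle genes called in NRPE1-RNAi, 49 moved the same way under the NRP(D/E)2 construct, whether called or not (94.2%, against 472 of 511 or 92.4% of the other genes). Among the 19 genes higher in both, the median log2 fold change was 3.22 for the NRP(D/E)2 construct and 2.74 for the NRPE1 construct. Among the 11 lower in both it was -1.52 for NRP(D/E)2 and -1.32 for NRPE1. The 30 genes lay on 18 chromosomes.

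These shared genes were also read in the NRPD1-RNAi family, where not all of them were tested. Of the 19 higher ones 11 were tested there, and 7 of them had a positive fold change, with a median log2 value of 0.17. Among the other genes higher in both Mustang families it was 111 of 133, with a median of 0.44. Without the filter 14 of the 19 middle genes and 161 of the 197 other genes had a higher mean in T plants. Of the 11 lower middle genes 10 were tested and 6 had a negative fold change, with a median of -0.10, and of the other genes lower in both 89 of 112, with a median of -0.30. Whether middle and other genes differ in this was not tested. Over all genes tested in NRPD1-RNAi 50.9% had a positive and 49.1% a negative fold change. No middle gene was called in all 3 families.

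By the smaller of both fold changes, Glyma.07G138500 and Glyma.14G111500 led the shared genes that rose. Glyma.07G138500 (chromosome 7, rank 1385) had 1.02, 1.22 and 1.94 CPM in the lowest, median and highest T plant of NRP(D/E)2-RNAi, against no count in NT plants, at least 40.8-fold higher over a floor of 3 counts in the NT group (edgeR's adjusted p of 0.000151). In NRPE1-RNAi it had 2.15, 3.28 and 6.13 CPM in T plants, against 0 CPM in 5 NT plants and 0.147 CPM in NT replicate 3 (edgeR's adjusted p of 0.000117). The ratio was 161, with an exact 95% counting interval of 44.3 to 1334. In NRPD1-RNAi, where it was not tested, it had 0.499, 2.01 and 2.46 CPM in T plants, against no count in NT plants, so T plants were at least 21.2-fold higher over the same floor.

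Glyma.14G111500 (chromosome 14, rank 1115) had 0.850, 2.52 and 3.36 CPM in the lowest, median and highest T plant of NRP(D/E)2-RNAi, against a single count in the 6 NT plants (ratio 206, exact 95% counting interval 36.6 to 8170, edgeR's adjusted p of 1.65e-05). In NRPE1-RNAi it had 1.05, 3.72 and 6.84 CPM in T plants, against 2 counts in NT plants (ratio 170, interval 46.9 to 1412, edgeR's adjusted p of 0.000264). Its levels in NRPD1-RNAi were 0, 0.249 and 0.487 CPM in T plants, against no count in NT plants. The shared genes that fell were led by Glyma.18G145500, given above, and Glyma.10G153600 (chromosome 10, rank 1536 of 2989). The log2 fold change of Glyma.10G153600 was -4.61 ± 0.49 in NRPE1-RNAi (SE, edgeR's adjusted p of 0.000246). In NRP(D/E)2-RNAi it was -2.29 ± 0.66 (SE, edgeR's adjusted p of 0.0347), and leaving out a single plant ended that call for 6 of the 12 plants, with an adjusted p of up to 0.0686.

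**Figure D5:**
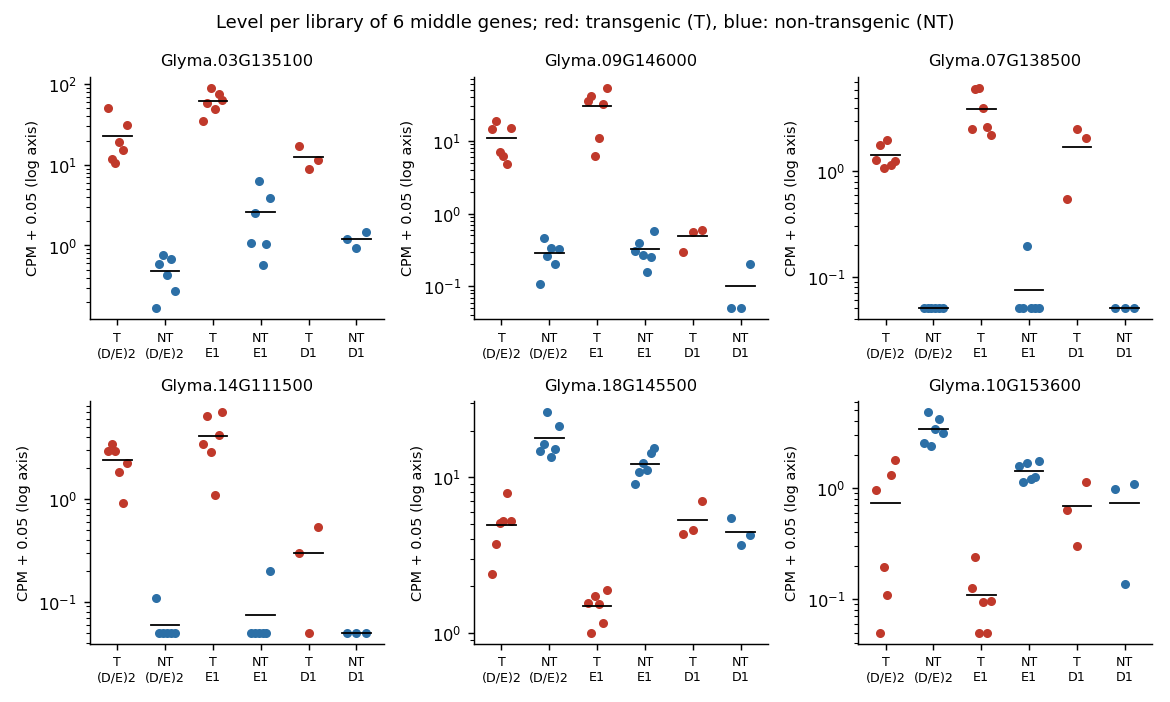
Level of 6 middle genes in each library, as CPM + 0.05 on a log axis, with T (red) left of NT (blue) in each family; the bar is the group mean, and points at 0.05 had no count. Glyma.03G135100, Glyma.09G146000, Glyma.07G138500 and Glyma.14G111500 stand higher in T plants of both Mustang families, and Glyma.18G145500 and Glyma.10G153600 lower. In NRPD1-RNAi the groups of the last 2 overlap, and T replicate 2 of Glyma.14G111500 had no count, as had its NT plants.

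Some middle genes were close to silent in NT plants and expressed in every T plant. Switched on means here that NT plants averaged under 0.1 CPM and each T plant reached 0.5 CPM, over all genes without a filter and with no test. This held for 7 middle genes in NRP(D/E)2-RNAi, beside 55 other genes and a background of 0.112% of all genes, and for 5 in NRPE1-RNAi, beside 45 other genes and a background of 0.0899%. Per 10000 genes that is 12.6 middle and 10.99 other genes in NRP(D/E)2-RNAi, and 9.01 middle and 8.99 other genes in NRPE1-RNAi. Without T replicate 1 the NRPE1-RNAi count was 9 middle genes. The rule is easier to meet with 1 T plant fewer, and the other genes were not counted in that setting. In NRPD1-RNAi the rule held for 0 middle genes and 19 other genes (background 0.0342%). Glyma.07G138500 missed it there only narrowly. It had no count in NT plants, and its lowest T plant stood at 0.499 CPM, just under the cut of 0.5 CPM. The Mustang families gave 9 distinct middle genes on 8 chromosomes, 3 of them switched on in both families. Glyma.12G127700 and Glyma.12G127800, both switched on in NRP(D/E)2-RNAi, are neighbours at ranks 1277 and 1278 of chromosome 12. Their T plants averaged 0.943 and 1.13 CPM there, and 1.07 and 1.30 CPM in NRPE1-RNAi. Whether these neighbours share reads could not be followed, so they may not count as separate genes. All 9 had every T plant above every NT plant in both families. In a family where the gene was switched on, the rule nearly fixes this in advance. It is an observation only for the genes switched on in 1 family, and only in the other family. In NRPD1-RNAi 7 of the 9 had a higher mean in T plants, 1 a lower mean, and 1 no count. By the converse rule 0 middle genes were switched off in NRP(D/E)2-RNAi, beside 7 other genes (background 0.0126%). In NRPE1-RNAi it was 1 middle gene beside 2 other genes (background 0.0054%).

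In the NRPD1-RNAi family none of the 2826 tested middle genes was called by edgeR, against 5 of 27708 other genes, beside a background of 0.0164%. At an unadjusted p under 0.05, 178 middle genes were higher (6.30%, background 6.23%) and 43 lower (1.52%, background 1.59%) in T plants. DESeq2 called 58 middle genes (1.78%), beside 1.51% of other genes, and edgeR called 5 middle genes (0.173%) without T replicate 3, beside 0.175% of other genes. All 3 T plants lay above all 3 NT plants for 250 middle genes (8.85%, background 8.62%), and below them for 128 (4.53%, background 4.62%). The median log2 fold change was 0.01 for tested middle genes and 0.01 for the other genes.

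Whether the effect of the transgene itself differed between families was tested in 1 edgeR model of all 30 libraries. Between NRP(D/E)2-RNAi and NRPE1-RNAi the effect differed for 4 of 3430 middle genes, beside 57 other genes and a background of 0.169%. The count was 12 without NRP(D/E)2 T replicate 6, beside 135 other genes. It was 7 without NRPE1 NT replicate 4, NRPE1 T replicate 1 or NRPE1 T replicate 6, beside 87, 64 and 72 other genes. Among the 4 middle genes, and chosen after the values were seen, Glyma.20G115900 (chromosome 20) averaged 3.15 CPM in T and 0.279 CPM in NT plants of NRP(D/E)2-RNAi, and 3.87 CPM in T and 8.02 CPM in NT plants of NRPE1-RNAi. Its effects differed by 4.46 ± 0.67 on the log2 scale (SE, edgeR's adjusted p of 0.00128). Glyma.14G106700 (chromosome 14) averaged 24.6 CPM in T and 54.9 CPM in NT plants of NRP(D/E)2-RNAi, and 84.6 CPM in T and 28.1 CPM in NT plants of NRPE1-RNAi, a difference of -2.77 ± 0.42 (SE, edgeR's adjusted p of 0.00133). It fell in NRP(D/E)2-RNAi (edgeR's adjusted p of 0.00226) and missed the threshold in NRPE1-RNAi (edgeR's adjusted p of 0.0552).

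Between NRPD1-RNAi and the mean of the Mustang families the effect differed for 15 middle genes, 13 of them with the more positive effect in NRPD1-RNAi, beside 130 other genes (75 with the more positive effect there) and a background of 0.401%. Without NRPD1 NT replicate 1, NRPD1 NT replicate 2 or NRPD1 T replicate 1 the count was 8, 6 and 7, beside 49, 61 and 73 other genes. Glyma.11G135700 (chromosome 11, rank 1357) had 52.6, 85.4 and 144 CPM in T plants of NRPD1-RNAi, against 7.504, 8.33 and 10.1 CPM in NT plants, without overlap. In NRP(D/E)2-RNAi it averaged 13.4 CPM in T and 14.2 CPM in NT plants, and in NRPE1-RNAi 8.52 CPM in T and 8.34 CPM in NT plants. Its effects differed by 3.48 ± 0.35 on the log2 scale (SE, edgeR's adjusted p of 2.48e-06), although the NRPD1-RNAi family alone missed the threshold (edgeR's adjusted p of 0.0945). The effect on Glyma.01G127400 (chromosome 1, rank 1274) was more negative in NRPD1-RNAi, by -3.73 ± 0.49 on the log2 scale (SE, edgeR's adjusted p of 0.000114). In NRPD1-RNAi it averaged 7.57 CPM in T and 14.4 CPM in NT plants, but the groups overlapped and it was not called (edgeR's adjusted p of 0.688). It was called higher in NRP(D/E)2-RNAi, with 8.75 CPM in T and 0.861 CPM in NT plants (edgeR's adjusted p of 2.47e-05). In NRPE1-RNAi it was called higher too, with 30.1 CPM in T and 6.03 CPM in NT plants (edgeR's adjusted p of 0.00057).

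The 15 genes lay on 11 chromosomes, and 4 of them stood close together on chromosome 13, at ranks 1757 to 1764. All 4 had the more positive effect in NRPD1-RNAi, by 1.64 to 4.62 on the log2 scale (edgeR's adjusted p from 0.00852 to 0.0496). Within NRPD1-RNAi alone their log2 fold changes were 1.53 to 4.50 and none was called (edgeR's adjusted p from 0.0945 to 0.164), and none was called in a Mustang family. Reads shared between near-identical copies, which neighbouring genes can be, could not be followed, because the sources used here do not name the counting program.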

How the data were processed

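Leaf poly(A) RNA was measured in 30 libraries of 6 groups. The authors deposited 1 table per library of raw read counts over 55589 Glyma identifiers, not normalised. STAR 2.5.3a, FastQC 0.11.5 and edgeR (version not given) were used, per the submitters' processing notes. The sources used here do not give genome build, annotation, counting program or strandedness, so near-identical, overlapping or antisense genes may share reads. None of the identifiers (0) matched the 59048 genes of the RefSeq table for Glycine_max_v4.0, so names, sequences and gene lists were not used here.

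Each family was fitted alone with edgeR 4.0.16 and limma 3.58.1 under R 4.3.3: filterByExpr, TMM scaling, quasi-likelihood test, no replicate block, Benjamini-Hochberg adjustment over all genes tested, called under 0.05. One model of the 6 groups over 30 libraries tested differences of effects. CPM were computed with TMM scaling within a family from the deposited counts; errors of fold changes are standard errors from the F statistic. Detection is the expected number of genes with at least 1 count after thinning to 10049997 counts. DESeq2 1.42.0, other scalings, no filter, other windows, a replicate block and leaving out each library were the alternatives. The fit was tested on simulated data. Libraries of a group differed by far more than sampling noise (chi-square per degree of freedom of at least 6.57 over 66 pairs). Figures used Python 3.11.15 and matplotlib 3.10.9.

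Genes were named per family if called, with no overlap between T and NT plants and a group mean of 5 CPM or more, in the order of the size of the log2 fold change; the first 2 each way are given. For both Mustang families called genes were ordered by the smaller absolute fold change. The middle genes, the rules and the tests were chosen with earlier results of these data known.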

Additional observations from a re-analysis of the deposited data

Results flagged for a closer look

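Among 68 groups of 6 libraries, 11 held a library far from the others by Dixon's test at 95%. Chance gives about 1 in 20 only for normally distributed values. A group with 1 library above 0 and the rest at 0 is always flagged, and a group wholly at 0 never is. The 11 cannot therefore be set against chance. For the share of counts on middle genes the library was T replicate 4 of NRP(D/E)2-RNAi at 9.67%. For detection it was NT replicate 4 of NRPE1-RNAi, at 65.8% of middle genes and 69.5% of other genes, and T replicate 3 of NRP(D/E)2-RNAi, at 72.4% of other genes. For Glyma.03G132900 it was T replicate 3 of NRP(D/E)2-RNAi at 6.34 CPM and NT replicate 2 of NRPE1-RNAi at 11.6 CPM. For Glyma.05G128000 it was T replicate 1 of NRPE1-RNAi at 10695 CPM. The remaining 4 were libraries with a few counts in a group otherwise at 0: NT replicate 6 of NRPE1-RNAi at 0.149 CPM for both Glyma.05G113500 and Glyma.14G111500, NT replicate 3 of NRPE1-RNAi at 0.147 CPM for Glyma.07G138500, and NT replicate 1 of NRP(D/E)2-RNAi at 0.0580 CPM for Glyma.14G111500.

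The effect of the transgene differed between families, by edgeR's test of the difference, for these middle genes. NRP(D/E)2-RNAi minus NRPE1-RNAi gave 4.46 for Glyma.20G115900, 2.05 for Glyma.14G116800 and -2.77 for Glyma.14G106700 on the log2 scale. NRPD1-RNAi minus the mean of the Mustang families gave 3.48 for Glyma.11G135700, 2.86 for Glyma.03G141500, 2.73 for Glyma.18G145500, -3.73 for Glyma.01G127400 and -4.05 for Glyma.05G128500. Leaving out 1 library ended the call for Glyma.03G141500 in 3 cases, with an adjusted p of up to 0.144 in edgeR, and for Glyma.05G128500 in 2, with one of up to 0.0821. It ended no call for the other 6 genes named here, in any of the 30 fits that left out 1 library.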

How the results depend on the processing

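No alternative turned the direction of a called value of a named gene. The share of tested middle genes called was 9.23% to 17.1% in NRP(D/E)2-RNAi, 1.24% to 6.07% in NRPE1-RNAi and 0% to 0.173% in NRPD1-RNAi with 1 library left out. For the other genes it reached 17.3%, 6.68% and 0.175%. DESeq2 called 4.70% of middle genes in NRPE1-RNAi and 1.78% in NRPD1-RNAi, beside 5.18% and 1.51% of other genes. A fit of all 30 libraries called 3.64% and 0.612%, beside 3.94% and 0.571% of other genes. Without a filter edgeR called 0.0235% in NRPD1-RNAi, beside 0.0226% of other genes.

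Of the called middle genes 48.8% to 55.4% were higher in NRP(D/E)2-RNAi, and 55.8% to 73.8% in the NRPE1-RNAi family, with 1 library left out, and 65.9% in NRP(D/E)2-RNAi by library totals. The median log2 fold change of tested middle genes ran from -0.0183 to 0.0172, from -0.0337 to -0.0126 and from -0.0242 to 0.0387 in NRP(D/E)2-RNAi, NRPE1-RNAi and NRPD1-RNAi. It was 0.0737, 0.0302 and 0.0760 by library totals and 0.012, -0.00072 and 0.026 without a filter. By size factors (RLE) it was -0.0059 in NRPE1-RNAi and -0.0052 in NRPD1-RNAi, and with the range 0.40 to 0.60 -0.027 in NRPE1-RNAi.

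T minus NT in middle genes detected was 121 to 160, 85.2 to 107 and 33.4 to 117 genes with 1 library left out, and in the share of counts -0.286 to -0.0985, -0.155 to -0.0313 and -0.218 to -0.0506 points. With the wider range 0.40 to 0.60 the NRP(D/E)2-RNAi values were 309 genes and -0.536 points and the NRPE1-RNAi values 209 genes and -0.425 points, and in NRPD1-RNAi they were 126 genes and -0.138 points. That range holds more genes, but the share of counts did not change in 1 ratio over the families. Switched-on middle genes numbered 7 to 8 in NRP(D/E)2-RNAi and 5 to 9 in the NRPE1-RNAi family (9 without T replicate 1). Switched-on other genes were not counted with 1 library left out. Effects differed for 3 to 12 middle genes between the Mustang families and for 6 to 18 in the other contrast, beside up to 135 and 160 other genes. In DESeq2 it was 24 and 31 middle genes, beside 273 and 353 other genes.

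The deviations of plants with the same number were mixed: 2 of 6, 3 of 6 and 0 of 3 pairs in NRP(D/E)2-RNAi, NRPE1-RNAi and NRPD1-RNAi correlated above 0.1, and 1, 2 and 0 pairs were the best match by number (correlations from -0.350 to 0.273, -0.421 to 0.457 and -0.498 to -0.281). The numbers were therefore not taken to pair the plants. With the replicate number as a block 6.51% of tested middle genes were called in NRP(D/E)2-RNAi, and for NRPE1-RNAi 0.812%, of which 75% were higher, beside 6.96% and 0.945% of other genes. The block ended the calls of Glyma.03G132900 in NRPE1-RNAi and Glyma.10G153600 in NRP(D/E)2-RNAi (edgeR's adjusted p of 0.0502 and 0.0671), with log2 fold changes of -3.63 and -2.73. DESeq2 called Glyma.01G132500 in NRPE1-RNAi (adjusted p of 0.0277). The causes of these changes were not tested. Single-gene values at few counts are limited by depth, and 3 plants per group limit NRPD1-RNAi.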
